A study of Mus musculus with 22 samples.

Results

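The genes described here are transcripts known to be induced by interferon, followed across every group of a time course in mouse fibroblasts. They were chosen by symbol from the table of normalized gene counts. Of 9 genes named (Stat2, Irf1, Irf7, Irf9, Isg15, Ifit1, Ifit3, Bst2 and Ifi35), 6 were in the table of 11208 genes, and Irf7, Ifit1 and Ifit3 were not analysed here.

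Polyadenylated RNA had been sequenced from NIH/3T3 cells, an immortalised mouse embryo fibroblast line, carrying a stably integrated doxycycline-inducible construct. In the E2F1 line the construct encodes E2F1, a transcription factor of the cell cycle, and in the EV line it is an empty vector, and the labels do not say whether a line is a clone or a pool. All 11 groups were starved for 48 h in 0.25% serum, which brings fibroblasts to a resting state. Both lines were sampled after 0, 2, 6 and 12 h of doxycycline (500 ng/ml), and EV cells also after 10% serum without doxycycline for 2, 6 or 12 h, with 2 libraries each. The series asks how E2F1 and serum return resting cells to the cycle. The serum groups and the EV doxycycline groups were both compared with the same EV 0 h libraries. Nothing in the labels says that replicates came from separate cultures, so p-values measure only the spread between these libraries, which may be technical.

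Totals per library ran from 34014608 to 46057140 normalized counts. The lowest mean of a gene over the libraries was 99.6, and none of the 9 interferon ligand genes looked for was analysed here. All 12 fibroblast markers were present, with sums of 696764 to 1427417 over the libraries. Of 12 immune markers only Csf1r and Cd14 were in the table, and no epithelial or endothelial marker was. E2f1 itself was at 1703 and 1637 normalized counts in the E2F1 line at 0 h, at 3806 and 3602 at 6 h and at 2683 and 2845 at 12 h, and both later pairs lay above the 0 h pair. At 2 h its values were 1535 and 1755, which overlapped those at 0 h. In the EV line E2f1 ran from 1635 to 1655 at 0 h and from 1307 to 1635 on doxycycline. On serum it ran from 740 to 802 at 2 h, 956 to 1186 at 6 h and 4247 to 4615 at 12 h. The 12 h serum pair lay above every library of the E2F1 line, so high E2f1 counts were not particular to that line. Whether E2f1 counts include RNA of the construct is not given in the sources used here. They may therefore not measure the level of induction. Replicates varied more than counting alone gives: the median ratio over genes of the replicate variance to the counting variance was at least 7.41 in each group. Ddx3y, a Y-linked RNA helicase gene, separated the lines at 0 h, with 580 and 521 in the E2F1 line against 9 and 4 in the EV line. At 2 h it was at 329 and 316 in the E2F1 line, 103 and 71 in the EV line on doxycycline, and 132 and 170 on serum. Later EV libraries also lay above the EV 0 h pair, with 18 to 31 at 6 h of doxycycline, 35 to 48 at 6 h of serum and 19 to 29 at 12 h of serum, and the E2F1 line held 415 to 435 at 6 h. Ddx3y was called higher at 6 h and 12 h of serum too (2.57 and 1.79 on the log2 scale). Whether libraries hold RNA of both lines, at 2 h or later, was not tested. The 2 h comparisons have no value without the 2 h libraries, and the 6 h and 12 h calls of the 6 genes were the same when all 2 h libraries were left out of the fit. In bulk RNA, fewer cells expressing a gene and less RNA per cell cannot be told apart.

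Type I interferons bind the receptor chains IFNAR1 and IFNAR2, whose kinases JAK1 and TYK2 phosphorylate STAT2. It acts with IRF9 in the complex ISGF3, which binds the interferon-stimulated response element (ISRE) of its target genes. Type II interferon acts at the gamma-activated site (GAS), and IRF1 is a classic target of that arm and itself binds ISRE-like sites. Many of these genes are also transcribed at a low level without added interferon, in fibroblasts among other cells.

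The 6 genes lie on 5 chromosomes of build GRCm38. Stat2 (ENSMUSG00000040033.16) is on the plus strand at chr10:128270559-128292849. Irf1 (ENSMUSG00000018899.16) is on the plus strand at chr11:53770014-53778374, and Gm17334 overlaps it on the other strand. Irf9 (ENSMUSG00000002325.15), on the plus strand at chr14:55603571-55610030, overlaps Rnf31 on the same strand. Isg15 (ENSMUSG00000035692.7) is on the minus strand at chr4:156199424-156200818, and a transcript of AC151275.1 matches it at 95.2% over 482 bases. Bst2 (ENSMUSG00000046718.8) is on the minus strand at chr8:71534255-71537456. Ifi35 (ENSMUSG00000010358.13), on the plus strand at chr11:101448407-101458698, shares 203 bases with the antisense transcript Gm11626. Whether counting used strand is not given in the sources used here, so reads of Irf1, Irf9, Isg15 and Ifi35 could be shared with these neighbours or copies.

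Promoter windows from RefSeq (GRCm38.p6), 250 bases before to 50 after each start site, were matched for all 6 genes, giving 8 windows. The letters searched on both strands were GAAA followed after 2 free bases by GAAA for the ISRE core, TTCNNNGAA for GAS and TTTCCCGC, TTTGGCGC or TTTCGCGC for E2F. Of the 8 windows, the ISRE core occurred in 1 window each of 3 genes, Stat2, Isg15 and Bst2, and in 2.806% of the 11012 windows of genes in the table. GAS letters occurred in 1 window each of Irf1, Bst2 and Ifi35, against 6.575% of all windows. No window of the 6 genes held an E2F word, against 3.714% of all windows, and an absence from 8 windows is near that share. A match is a description of these letters and not a measured site. The bases before the start site are printed for the 4 genes with a match there, with ISRE and GAS letters in capitals. They are Stat2 (plus strand, chr10:128270248-128270497), Irf1 (plus strand, chr11:53769764-53770013), Isg15 (minus strand, chr4:156200819-156201068) and Bst2 (minus strand, chr8:71537473-71537722).
Stat2: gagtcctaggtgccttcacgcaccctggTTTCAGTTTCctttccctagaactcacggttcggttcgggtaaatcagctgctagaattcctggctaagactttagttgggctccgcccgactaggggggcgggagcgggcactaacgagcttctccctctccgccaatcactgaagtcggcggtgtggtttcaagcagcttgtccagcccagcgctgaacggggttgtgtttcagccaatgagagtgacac
Irf1: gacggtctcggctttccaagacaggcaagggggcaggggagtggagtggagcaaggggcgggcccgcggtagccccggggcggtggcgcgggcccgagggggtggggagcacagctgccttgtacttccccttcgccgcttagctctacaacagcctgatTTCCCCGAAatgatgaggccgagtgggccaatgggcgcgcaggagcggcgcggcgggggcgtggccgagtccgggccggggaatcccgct
Isg15: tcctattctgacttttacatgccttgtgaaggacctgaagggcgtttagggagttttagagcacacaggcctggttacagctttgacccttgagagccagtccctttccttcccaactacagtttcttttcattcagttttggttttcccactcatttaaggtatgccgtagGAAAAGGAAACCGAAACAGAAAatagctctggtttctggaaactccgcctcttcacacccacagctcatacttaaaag
Bst2: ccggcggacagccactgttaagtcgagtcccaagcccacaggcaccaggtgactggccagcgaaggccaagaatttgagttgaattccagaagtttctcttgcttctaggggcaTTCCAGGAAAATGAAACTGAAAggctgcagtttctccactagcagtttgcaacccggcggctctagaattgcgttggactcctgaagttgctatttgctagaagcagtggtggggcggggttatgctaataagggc
Isg15 held 3 overlapping ISRE cores between 78 and 57 bases before its start site. In Bst2 the 2 overlapping ISRE cores ran from 130 to 115 bases before the start and a GAS match from 136 to 128, so the capitals there form 1 run. The single match of Stat2 was 222 to 213 bases before the start and that of Irf1 was 90 to 82 before it.

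**Figure D1:**
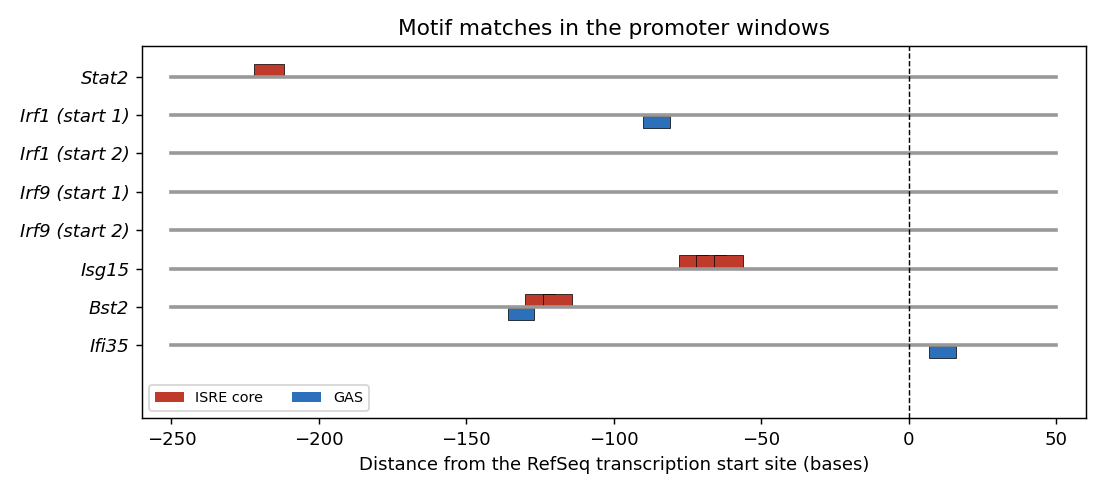
Motif matches in the 8 RefSeq promoter windows of the 6 genes, by distance from the start site in bases (dashed line at 0). Red boxes above a line are ISRE core letters and blue boxes under it are GAS letters, with Isg15 and Bst2 holding clusters of ISRE cores and the windows of Irf9 and the second start of Irf1 holding neither.

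After serum these genes were lower, Stat2 and Irf1 by the most at 2 h. At 2 h of serum 3 of 6 genes were lower than at 0 h, Stat2, Irf1 and Bst2, where 33.5% of all genes were called lower and 37.5% higher. By 6 h it was 5 of 6, against 31.0% of all genes lower and 36.5% higher, and by 12 h all 6, against 29.7% lower and 36.0% higher. The median log2 change of the 6 genes was -0.40, -0.93 and -1.01 at these times, beside 0.03, 0.03 and 0.05 over all genes. None of the 6 was called higher, except Isg15 at 2 h when serum 2 h replicate 1 was left out (0.57, limma adjusted p 0.0469). A gene was called where the limma adjusted p was under 0.05, on log2(value + 1). With libraries scaled to equal totals the calls over all genes moved from 4200 higher and 3752 lower to 2611 and 5907 at 2 h, and from 4093 and 3470 to 2914 and 4772 at 6 h. That scaling moved the median change of all genes by -0.37 at 2 h and -0.21 at 6 h.

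Induction of E2F1 came with a mixed pattern. None of the 6 genes was called by limma at 2 h, nor had any an unadjusted p under 0.05, where 1.86% of all genes were called. At 6 h Stat2 and Ifi35 were lower, which is 2 of 6 where 22.9% of all genes were lower and 28.8% higher. At 12 h Stat2 and Ifi35 were lower, against 29.7% of all genes, and Isg15 was higher, against 31.8%. The median change of the 6 genes was -0.25 at 6 h and -0.15 at 12 h, beside -0.03 and -0.02 over all genes. With equal totals the 6 h calls over all genes went from 3230 higher and 2569 lower to 2683 and 3781, with a shift of the median of -0.12.

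With doxycycline in the EV line limma called none of the 6 genes, under the main or any alternative setting, and 1, 1 and 0 had an unadjusted p under 0.05 at 2, 6 and 12 h. The share of all genes called there was 7.35% at 2 h, 0.134% at 6 h and 4.17% at 12 h.

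**Figure D2:**
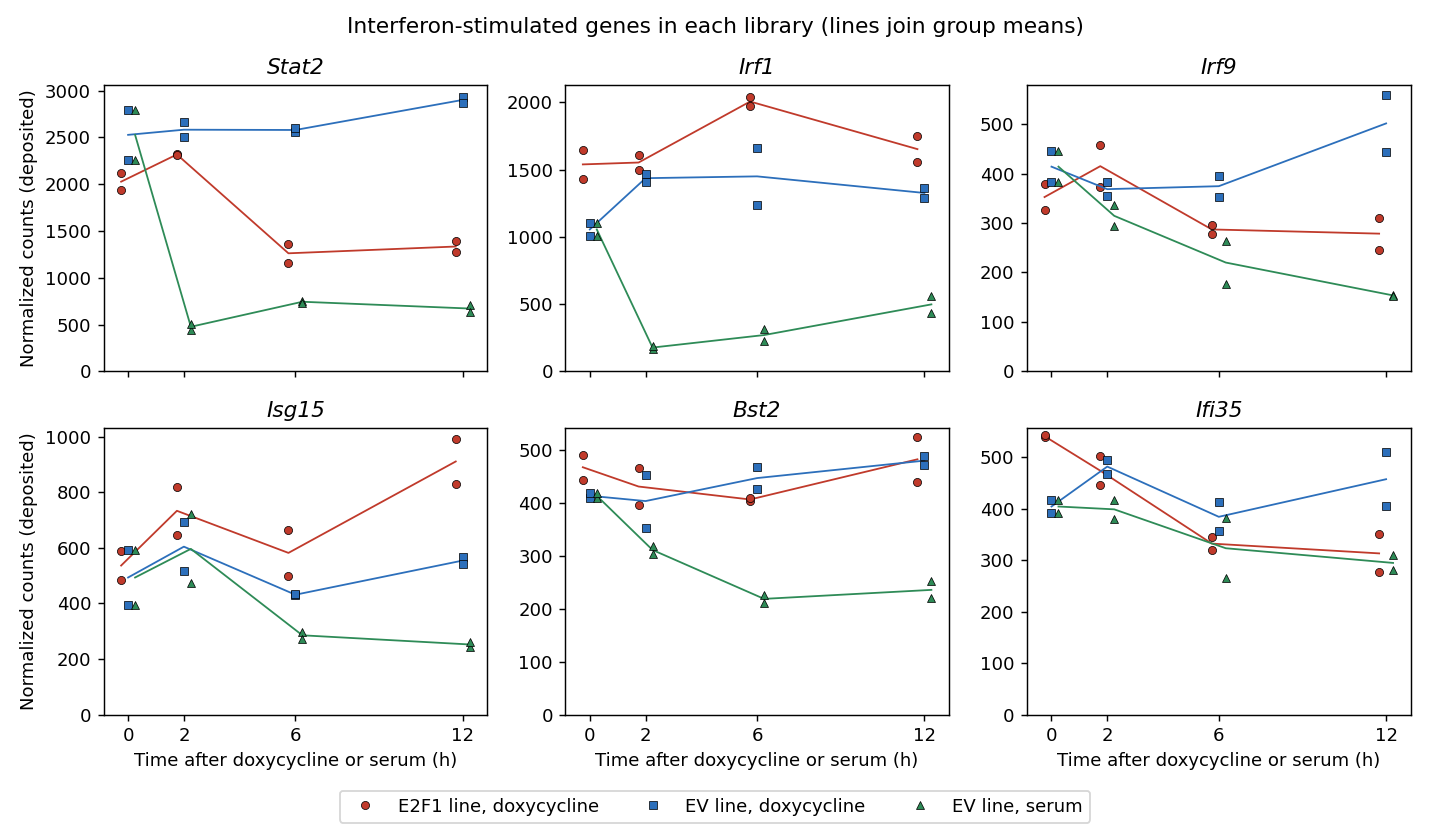
Normalized counts of the 6 genes in each library against time in hours, with red circles for the E2F1 line on doxycycline, blue squares for the EV line on doxycycline and green triangles for the EV line on serum. Lines join group means, the EV 0 h libraries are drawn for both EV arms, and the serum points of Stat2 and Irf1 lie below all others from 2 h on.

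Stat2, the subunit of ISGF3 that carries its main transactivation domain, fell at each serum time. It was at 2795 and 2261 normalized counts in the EV line at 0 h, then at 445 and 507 after 2 h of serum, 755 and 732 after 6 h and 708 and 634 after 12 h. All 6 serum libraries lay below every other library. Stat2 was 5.28-fold, 3.38-fold and 3.75-fold lower, with log2 changes of -2.40, -1.76 and -1.91 (SE 0.11) and limma adjusted p of 1.89e-12, 1.68e-10 and 1.53e-10. In the E2F1 line it was at 1934 and 2121 at 0 h, 2323 and 2313 at 2 h, 1157 and 1366 at 6 h and 1278 and 1390 at 12 h. The 6 h and 12 h libraries were all below those at 0 h and 2 h. The log2 change was -0.69 at 6 h and -0.60 at 12 h (limma adjusted p 4.25e-05 and 0.000109). With doxycycline alone the EV line held 2662 and 2504 at 2 h, 2558 and 2602 at 6 h and 2937 and 2866 at 12 h. Of these, the 2 h and 6 h values lay within the range at 0 h.

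Irf1, a transcription factor induced by type II interferon, had the widest range, with the highest group mean 11.4 times the lowest. EV cells held 1101 and 1009 normalized counts at 0 h, and 168 and 185, 317 and 222, and 558 and 437 after 2, 6 and 12 h of serum. The lowest pair was at 2 h and the pairs at the 3 serum times did not overlap. Its log2 changes were -2.57, -1.99 and -1.09 (SE 0.16), with limma adjusted p of 9.97e-11, 5.07e-09 and 1.06e-05. E2F1 cells held 1649 and 1428 at 0 h, 1605 and 1500 at 2 h, 1976 and 2036 at 6 h and 1556 and 1748 at 12 h. The 6 h pair was the highest of all groups. Its log2 difference from 0 h was 0.39 (limma adjusted p 0.0521), a value that passed when the fit held only those groups (adjusted p 0.00944) and with a pseudocount of 8 (adjusted p 0.0497). In the EV line doxycycline libraries held 1235 to 1664, all above the 0 h pair, with log2 differences of 0.45, 0.44 and 0.33 and limma adjusted p of 0.101, 0.732 and 0.306.

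Irf9, the DNA-binding subunit of ISGF3, was called lower in serum from 6 h on. It was at 445 and 383 normalized counts in EV cells at 0 h, 336 and 293 at 2 h, 176 and 264 at 6 h and 155 and 152 at 12 h of serum. Both 12 h libraries were the lowest of all 22. The log2 change was -0.93 at 6 h and -1.42 at 12 h (SE 0.20, limma adjusted p 0.000375 and 4.95e-06), and the 2 h difference of -0.39 passed only with equal totals (-0.77, adjusted p 0.00166). In E2F1 cells Irf9 counts were 378 and 327 (0 h) and 246 and 311 (12 h), with no overlap, as for 81.3% of all genes. That difference of -0.34 did not pass (limma adjusted p 0.134).

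Isg15, a ubiquitin-like protein joined to other proteins, was the only one of the 6 called in opposite directions after E2F1 and after serum. E2F1 cells held 589 and 484 normalized counts at 0 h, 819 and 648 at 2 h, 499 and 665 at 6 h and 829 and 993 at 12 h. The 12 h pair was the highest of all groups, and the 6 h pair overlapped that at 0 h. At 12 h Isg15 was 1.70-fold higher, a log2 change of 0.76 (SE 0.22, limma adjusted p 0.00548). Without replicate 2 at 0 h the adjusted p was 0.0618, and without replicate 2 at 12 h it was 0.0564. In EV cells Isg15 was at 591 and 396 at 0 h, then at 472 and 721, 299 and 272, and 244 and 261 after 2, 6 and 12 h of serum. The 6 h and 12 h serum libraries were the lowest 4 of all. The changes were -0.76 at 6 h and -0.94 at 12 h (limma adjusted p 0.00499 and 0.00105), and without EV 0 h replicate 1 the 6 h value was -0.47 (adjusted p 0.106). The EV doxycycline libraries held 430 to 692. Set against the EV change on the same doxycycline, the 12 h change in E2F1 cells differed by 0.57 and was not called (limma adjusted p 0.135).

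The 3 other genes of ISG15 conjugation in the table were Uba7 (its activating enzyme), Ube2l6 (its conjugating enzyme) and Trim25 (a ligase). Ube2l6 was at 529 and 639 normalized counts in E2F1 cells at 0 h and at 1051 and 1309 at 12 h. It rose by 1.01 on the log2 scale (limma adjusted p 0.00022), and in 6 h serum it fell by 1.13 (adjusted p 5.82e-05). Uba7 was at 268 and 254 in EV cells at 0 h and at 23 and 39 after 6 h of serum. Its log2 change was -3.08 there and -2.55 at 12 h (limma adjusted p 3.03e-07 and 3.77e-06). Trim25 fell by 0.53 at 6 h and 0.49 at 12 h in E2F1 cells (limma adjusted p 0.000466 and 0.000575).

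Bst2, the membrane protein tetherin that holds budding virus at the cell surface, was called in serum at each time and in neither doxycycline arm. EV cells held 409 and 419 normalized counts at 0 h, and 319 and 304, 226 and 212, and 220 and 252 after 2, 6 and 12 h of serum. All 6 serum libraries lay below the other 16. The log2 changes were -0.41, -0.92 and -0.81 (SE 0.15), with limma adjusted p of 0.0214, 3.21e-05 and 0.000128. The 2 h call was lost with quantile normalization (-0.05, adjusted p 0.761), with only the groups compared (adjusted p 0.0596), and without EV 0 h replicate 1 (0.0573), EV 0 h replicate 2 (0.078) or serum 2 h replicate 2 (0.0893). In E2F1 cells Bst2 ran from 396 to 526 over all times, and its log2 differences were -0.12, -0.20 and 0.04.

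Ifi35, an interferon-induced leucine zipper protein, was called lower in E2F1 cells at 6 h and 12 h and in serum at 12 h. It was at 539 and 542 normalized counts at 0 h, 502 and 445 at 2 h, 319 and 345 at 6 h and 276 and 350 at 12 h. The 6 h and 12 h libraries were all below the earlier ones. The log2 changes were -0.70 and -0.80 (SE 0.17, limma adjusted p 0.00266 and 0.000679). In EV cells it was at 416 and 392 at 0 h, 380 and 417 at 2 h, 381 and 265 at 6 h and 309 and 280 at 12 h of serum. The 12 h change of -0.46 (limma adjusted p 0.0284) was lost with quantile normalization (adjusted p 0.0653), without EV 0 h replicate 1 (0.117) or 2 (0.0569), and without serum 12 h replicate 2 (0.137). Doxycycline in EV cells gave 356 to 509.

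**Figure D3:**
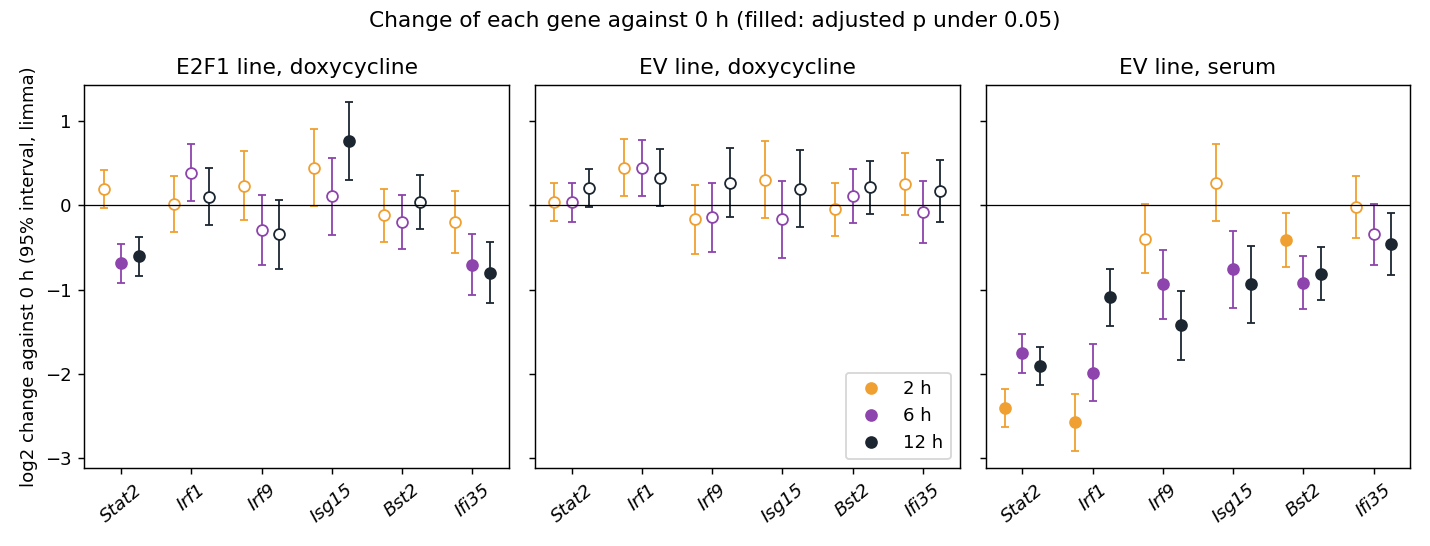
Log2 change against 0 h with its 95% limma interval for each gene, by arm, at 2 h (orange), 6 h (purple) and 12 h (black). Filled points have an adjusted p under 0.05, and they include all 6 genes at 12 h of serum, 3 genes at 12 h of E2F1 and none in the EV line on doxycycline.

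The change in the E2F1 line was set against that in the EV line under the same doxycycline to separate E2F1 from the drug. None of the 6 genes was called at 2 h (limma, none with an unadjusted p under 0.05), where 0.143% of all genes were. At 6 h the log2 change of Stat2 was lower by 0.72 (limma adjusted p 0.00129), 1 of 6 genes against 12.3% of all genes called lower and 22.2% higher. At 12 h Stat2 (-0.81, adjusted p 0.000273) and Ifi35 (-0.96, adjusted p 0.00322) were lower, against 23.3% of all genes lower and 27.3% higher. Isg15 differed by 0.57 (limma adjusted p 0.135), so its rise in the E2F1 line was not told apart from the EV line, except without EV 0 h replicate 2 (0.86, adjusted p 0.0361). Ifi35 at 6 h (-0.63, limma adjusted p 0.0571) passed with equal totals (-0.73), quantile normalization (-0.69) or only the groups compared. The difference for Irf9 at 12 h was -0.62 (limma adjusted p 0.0718), and it passed with equal totals (adjusted p 0.0455) or quantile normalization (0.0441). Calls over all genes at 6 h went from 2493 higher and 1373 lower to 2101 and 2251 with equal totals and 2068 and 2583 with quantile normalization, and at 12 h from 3059 and 2606 to 2659 and 3457 with quantile normalization.

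The E2F1 change was also set against the serum change at the same time. Stimuli and lines differ between these arms, and a higher value means a smaller fall or a rise in E2F1 cells. At 2 h Stat2 and Irf1 were higher by 2.60 and 2.59 on the log2 scale (limma adjusted p 2.78e-10 and 3.08e-08), 2 of 6 genes where 26.6% of all genes were higher and 30.2% lower. At 6 h Stat2 (1.07), Irf1 (2.37), Isg15 (0.87, adjusted p 0.0219) and Bst2 (0.72, adjusted p 0.00777) were higher, 4 of 6 against 30.3% of all genes higher and 27.6% lower. Isg15 and Bst2 lost that call with quantile normalization (0.61, adjusted p 0.104, and 0.44, adjusted p 0.0769). Leaving out E2F1 0 h replicate 2, E2F1 6 h replicate 2, EV 0 h replicate 1 or serum 6 h replicate 2 also ended it for Isg15 (adjusted p 0.0867, 0.109, 0.132 and 0.0606). By 12 h 5 of 6 were higher, against 25.0% of all genes higher and 23.8% lower: Isg15 by 1.70, Stat2 by 1.30, Irf1 by 1.20, Irf9 by 1.08 and Bst2 by 0.85. For Ifi35 the 12 h difference was -0.34 (limma adjusted p 0.27, 95% interval -0.86 to 0.18). With equal totals the 2 h calls over all genes went from 2977 higher and 3382 lower to 4970 and 1966, and the median moved by 0.37.

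Before any stimulus the E2F1 line held more Irf1 than EV cells, by 0.54 on the log2 scale (limma adjusted p 0.0305), 1 of 6 genes where 8.86% of all genes were higher and 6.17% lower. That call was lost without each 0 h library in turn (adjusted p 0.0566 to 0.211) and without all 2 h libraries (0.0583). Stat2 differed by -0.31 (limma adjusted p 0.061), and Ifi35 by 0.42 (adjusted p 0.113). Per kilobase of exon at 0 h, Isg15 was the most abundant of the 6 (710 in the E2F1 line and 653 in the EV line) and Irf9 the least (65.4 and 76.9). Bst2, Stat2, Irf1 and Ifi35 lay between, from 234 to 518.

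Ranked by group mean over the 11 groups, neighbouring groups did not overlap in 6 of 10 pairs for Stat2 and in 6 of 10 for Irf1. For Isg15 it was 3, for Bst2 2, for Ifi35 2 and for Irf9 1. That count was not made over all genes. In the comparisons with 0 h, libraries did not overlap for 50.4%, 78.2% and 81.3% of all genes at 2, 6 and 12 h of E2F1. In serum the shares were 84.1%, 80% and 82.5%, and on doxycycline in the EV line 50.7%, 34% and 44%. A serum group was the lowest for each of the 6 genes: 2 h for Stat2 and Irf1, 6 h for Bst2, and 12 h for Irf9, Isg15 and Ifi35. How often a serum group was the lowest over all genes was not counted. The ratio of the highest to the lowest group mean was 6.10 for Stat2, 3.61 for Isg15, 3.27 for Irf9, 2.21 for Bst2 and 1.84 for Ifi35.

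A wider list of 79 other interferon-stimulated genes had 38 in the table. In serum 21 of the 38 were lower and 3 higher at 2 h, 26 lower and 1 higher at 6 h, and 24 lower and 4 higher at 12 h. Of all genes 33.5%, 31.0% and 29.7% were lower and 37.5%, 36.5% and 36.0% higher at these times. The median log2 change of the 38 was -0.61 at 2 h, -1.0 at 6 h and -0.62 at 12 h, beside 0.03, 0.03 and 0.05 over all genes. In E2F1 cells 11 were lower and 3 higher at 6 h, and 10 lower and 6 higher at 12 h, with a median of -0.26 and -0.14 beside -0.03 and -0.02 over all genes. The shares of all genes were 22.9% lower and 28.8% higher at 6 h, and 29.7% lower and 31.8% higher at 12 h. Without E2F1 0 h replicate 2 the 14 called at 6 h became 9. At 2 h of E2F1 none was called, although 5 were when the fit held only these groups. On doxycycline the EV line had 2 higher and 1 lower at 2 h, none at 6 h and 1 lower at 12 h, where 7.35%, 0.134% and 4.17% of all genes were called. None of the 38 was called at 2 h without EV 0 h replicate 2 or either 2 h doxycycline library. At 12 h none was called without EV 0 h replicate 2 or EV 12 h replicate 2, and 3 were without EV 0 h replicate 1.

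Trim30a, a restriction factor of the TRIM family, was at 334 and 323 normalized counts in EV cells at 0 h and at 18 and 15 after 6 h of serum. Its log2 change there was -4.24 (limma adjusted p 1.33e-09), and in E2F1 cells at 6 h it was -1.27 (adjusted p 0.00225). Xaf1, a pro-apoptotic interferon target, went from 259 and 255 to 36 and 14 after 12 h of serum, a change of -3.45 (adjusted p 5.06e-08). Ifit2, which binds viral RNA, was called higher at 12 h in E2F1 cells and in serum. Its counts in E2F1 cells were 1337 and 1229 (0 h) and 2596 and 2479 (12 h), a rise of 0.98 (limma adjusted p 3.1e-06). In EV cells Ifit2 went from 946 and 1013 to 160 and 171 after 2 h of serum, and at 12 h of serum its mean was 1369.5 against 979.5 (0.47, limma adjusted p 0.0035, a call lost without serum 12 h replicate 1, adjusted p 0.0855). In EV cells after 12 h of doxycycline Ifit2 was lower by 0.63 (adjusted p 0.00892), a call lost with only the groups compared (0.087) or without EV 0 h replicate 2 (0.16) or EV 12 h replicate 2 (0.0777). Nampt and Samhd1 rose in E2F1 cells at 12 h (1.05) and 6 h (0.80) and both rose at 12 h of serum (0.54 and 0.89, limma adjusted p 0.000312 and 1.36e-07). In E2F1 cells Isg20, Ifi44 and Ifi27 fell at 12 h by 1.10, 0.99 and 0.99. Without E2F1 12 h replicate 1 the call of Ifi44 was lost (-0.66, adjusted p 0.131).

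**Figure D4:**
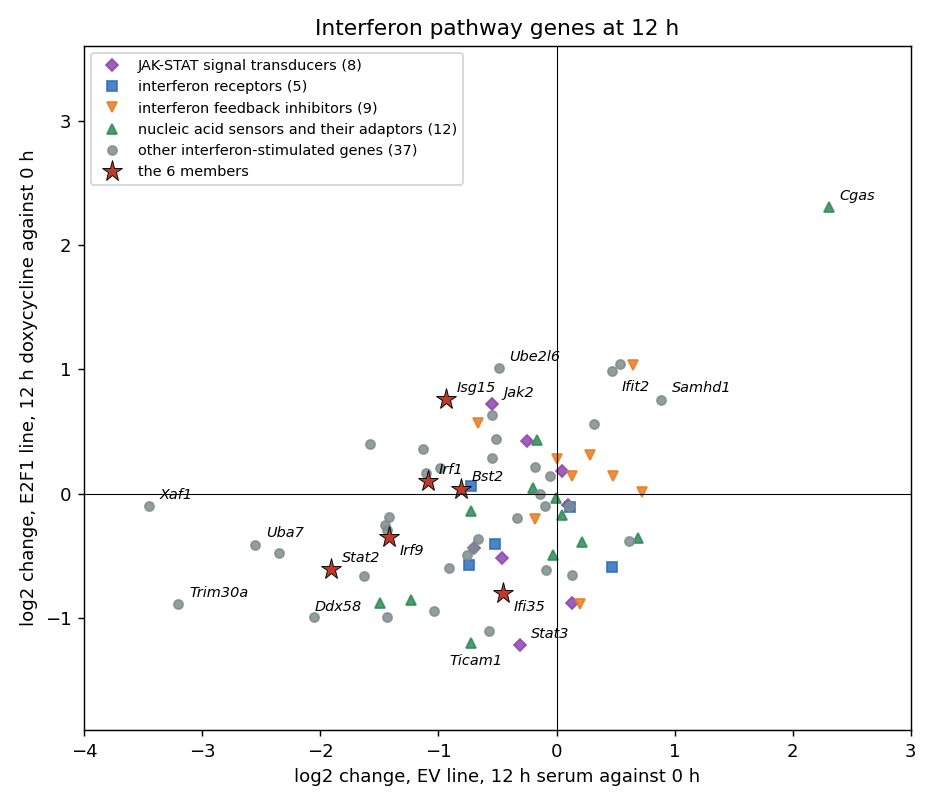
Log2 change at 12 h of serum in the EV line (horizontal) against the log2 change at 12 h of E2F1 (vertical) for the 6 genes (stars) and the genes of the interferon pathway lists in the table, with a gene of 2 lists drawn once and the number drawn in brackets. The arms share no 0 h libraries, Isg15 and Ube2l6 sit in the upper left, Stat2, Irf9 and Ifi35 in the lower left, and Cgas at the upper right.

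Upstream of these genes, 3 of 5 receptor genes were lower in E2F1 cells at 6 h and 3 at 12 h, with none higher. Of all genes 22.9% and 29.7% were lower and 28.8% and 31.8% higher at these times. The 6 h call of Ifnar2 (limma adjusted p 0.0422) was lost without any 1 of the 4 libraries compared (adjusted p 0.071 to 0.183) and without all 2 h libraries (0.0535). Ifnar1 was at 2288 and 2287 normalized counts at 0 h and at 1687 and 1767 at 12 h, a change of -0.41 (limma adjusted p 0.000547). For Ifnar2 the 12 h change was -0.57 (adjusted p 0.00119) and for Ifngr2 -0.59 (adjusted p 2.96e-05). In serum 1 receptor was higher at each time, and 0, 2 and 3 were lower at 2, 6 and 12 h. Of all genes 37.5%, 36.5% and 36.0% were higher and 33.5%, 31.0% and 29.7% lower at these times. The 6 h serum call of Ifnar2 was lost without serum 6 h replicate 2 (limma adjusted p 0.107). Ifngr2, a chain of the type II receptor, was the higher one at 6 h and 12 h (0.70 and 0.47), while Ifnar1 fell by 0.43 and 0.52.

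Of 8 genes for kinases and STAT factors, 3 were higher and 3 lower at 6 h of E2F1, and 2 higher and 4 lower at 12 h. Among all genes, 28.8% were higher and 22.9% lower at 6 h, while at 12 h the shares were 31.8% and 29.7%. The call of Stat5a was lost at 6 h without E2F1 0 h replicate 1 (limma adjusted p 0.0574), and at 12 h (adjusted p 0.0495) without E2F1 0 h replicate 2 (0.417) or 12 h replicate 1 (0.279), without the doxycycline or all 2 h libraries (0.0684 and 0.0723) and with a mean of at least 500 (0.0509). Jak2, a kinase of the type II receptor, held 2144 and 2064 normalized counts at 0 h and 5525 and 5136 at 6 h of E2F1, a log2 change of 1.34 (limma adjusted p 1.53e-09). In serum Jak2 fell by 0.46 at 6 h and 0.54 at 12 h. Stat3 fell in E2F1 cells by 0.56 and 1.22.

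Nucleic acid sensors and their adaptors had 12 genes in the table, with 1 higher and 6 lower at 6 h of E2F1, and 2 higher and 6 lower at 12 h, against the same shares of all genes (28.8% higher and 22.9% lower, then 31.8% and 29.7%). Cgas, the cytosolic DNA sensor, held 472 and 449 normalized counts at 0 h, then 1868 and 1548 (6 h) and 2407 and 2155 (12 h). With E2F1 the 12 h rise was 2.30 (limma adjusted p 2.49e-09). In EV cells Cgas went from 308 and 422 to 1913 and 1670 after 12 h of serum, a rise of 2.31 (adjusted p 2.09e-09). In both arms the 12 h pairs lay above all 0 h libraries. After 12 h of doxycycline in EV cells Cgas was lower by 0.63 (limma adjusted p 0.0389). That call was lost with only the groups compared (0.264), without all 2 h libraries (0.0692), and without EV 0 h replicate 2 or either 12 h doxycycline library. Ddx58, the RNA sensor RIG-I, fell by 0.88 at 12 h of E2F1 and by 1.50 at 12 h of serum. Ticam1, the adaptor of TLR3, fell by 1.20 and 0.72. Myd88 fell by 0.58 at 6 h of E2F1 (limma adjusted p 0.000257) and rose by 1.04 and 0.69 at 6 h and 12 h of serum. Of the 12 genes 2, 4 and 2 were higher and 5, 5 and 3 lower at 2, 6 and 12 h of serum. Among all genes 37.5%, 36.5% and 36.0% were higher and 33.5%, 31.0% and 29.7% lower at these times.

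The list named interferon feedback inhibitors had 9 genes in the table: Socs1, Socs3, Ptpn1, Ptpn2, Ptpn11, Pias1, Irf2, Irf2bp1 and Irf2bp2. It joins general inhibitors with feedback genes, so its counts do not measure interferon feedback. At 6 h of E2F1 6 were higher and 1 lower, and at 12 h 3 and 1. Of all genes 28.8% and 31.8% were higher and 22.9% and 29.7% lower at these times. The 6 h call of Irf2 (limma adjusted p 0.0496) was lost with equal totals (0.177), quantile normalization (0.194), replicate numbers as a block (0.0542) and without any 1 of the 4 libraries compared (0.0539 to 0.263). That of Ptpn2 at 12 h (0.0431) was lost under both scalings (0.0892 and 0.146), without all 2 h libraries (0.0544), and without E2F1 0 h replicate 1 (0.323), 12 h replicate 1 (0.218) or 12 h replicate 2 (0.051). In serum 7, 5 and 3 were higher at the 3 times, where 37.5%, 36.5% and 36.0% of all genes were. There 1 was lower at each time, against 33.5%, 31.0% and 29.7% of all genes. Ptpn11 rose in E2F1 cells by 1.12 at 6 h and 1.03 at 12 h (limma adjusted p 9.6e-10 and 2.67e-09). It also rose by 0.66 and 0.65 in serum at these times. Pias1 rose by 0.42 and 0.57 in E2F1 cells (limma adjusted p 0.00172 and 7.54e-05) and fell by 0.70 and 0.66 in serum. Socs1, which blocks JAK kinases, was the 1 lower gene with E2F1. Its values were 911 and 773 in E2F1 cells at 0 h and 443 and 467 at 12 h, a change of -0.88 (limma adjusted p 9.57e-06). In EV cells Socs1 went from 692 and 658 to 1109 and 1019 after 6 h of serum, a change of 0.65 (adjusted p 0.000182). Of the 3 other interferon regulatory factors in the table, Irf5 was higher in serum at 6 h (2.62, adjusted p 1.31e-07) and 12 h (1.68).

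With E2F1 4 of 12 fibroblast markers were lower at 6 h, where 22.9% of all genes were. At 12 h 10 of 12 were lower, where 29.7% of all genes were, with sums of 696764 to 724781 against 1111452 to 1121624 at 0 h. At 12 h of serum 8 were lower and 2 higher, against 29.7% and 36.0% of all genes, with sums of 813694 to 980741 against 1179460 to 1234741. The sum of the immune markers Csf1r and Cd14 was 261 to 368 in EV cells at 0 h, 937 to 990, 690 to 771 and 560 to 963 at 2, 6 and 12 h of serum, and 146 to 241 against 257 to 437 at 12 h and 0 h of E2F1. The part of these markers in the changes of the 6 genes was not tested.

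For each gene the closest patterns over the 11 group means were sought among all genes other than the 6, by Pearson's r of log2(value + 1). The points share libraries and scaling, so r is a description. Dedd2 and Arrdc2 were closest to Stat2 (r of 0.991 each), and Zmym3 (0.984) and Fign (0.981) to Irf1. Dedd2 went from 755 and 756 normalized counts in EV cells at 0 h to 195 and 229 at 2 h of serum. The closest to Bst2 were Spata6 and Uba7 (0.980 each), and Uba7 is the ISG15-activating enzyme gene described above. Those closest to Irf9 were Chd2 (0.966) and Itm2b (0.960), to Isg15 Ephx1 (0.941) and Cep120 (0.937), and to Ifi35 Rtl8c (0.938) and Pdgfrb (0.934). Among themselves the 6 genes had r from 0.332 (Irf1 and Ifi35) to 0.817 (Irf1 and Bst2).

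The authors' deposited tables of changes keep only changes of roughly 2 log2 units or beyond in size. Of the 6 genes, the authors' deposited table for 2 h of serum lists Stat2 (-2.39, adjusted p 3.05e-30) and Irf1 (-2.57, adjusted p 1.27e-20), and no table lists the other 4.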

How the data were processed

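Gene-level RNA-seq values of 22 libraries were analysed. The main table holds normalized counts rounded to whole numbers, per the file headers; the authors had scaled them, so they were treated as a score and not as raw counts. Further tables hold the log2 fold changes that the authors deposited, with an adjusted p-value the authors deposited for each gene listed. The submitters' processing notes name FastQC, Trimmomatic, HISAT2, featureCounts and DESeq2 and the build mm10, with no settings. Groups and replicate numbers were taken from the labels.

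The log2 of each value plus 1 was fitted by limma 3.58.1 (R 4.3.3), as 1 mean per group over all libraries (11 residual degrees of freedom) with trended empirical Bayes moderation. P-values were adjusted by Benjamini-Hochberg over the 11208 genes of each comparison. A fold on this scale slightly understates changes of low values. The code was tested on simulated data. Depth before scaling is not given in the sources used here, and the counting variance was taken as equal to the mean normalized count. Alternatives were a pseudocount of 8, equal totals, quantile normalization, a mean of at least 500, only the groups compared, the replicate number as a block, and leaving out each library or the 2 h libraries. Leaving out all 2 h libraries, and repeating the alternatives for the other lists, were chosen after seeing the data. Replicate numbers were not treated as pairs. Over 55 pairs of groups the correlations of deviations ran from -0.277 to 0.455, with a median of 0.031 and 18 over 0.1. This check does not settle whether libraries of some groups were paired.

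The members and lists were chosen with earlier results of these data known. Genes outside the 6 were named by a rule: up to 3 rises and 3 falls of each list at 6 h and 12 h with an adjusted p under 0.05, no overlap between groups and a mean of at least 50, E2f1 and Y-linked genes, and the 2 closest patterns per gene. Values of Ifit2 and Socs1 in comparisons outside the rule were added after they were seen. Of the 11208 gene identifiers, 10977 had the same version in GENCODE M21 (GRCm38), which gave positions and exon lengths. Promoters came from RefSeq. Tables and figures were made in Python 3.11.15 (pandas 2.3.3, numpy 2.4.6, matplotlib 3.10.9).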

Additional observations from a re-analysis of the deposited data

Results flagged for a closer look

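The changes that differed between arms by their own test are collected here, on the log2 scale with limma adjusted p. Against the EV line under the same doxycycline, the Stat2 change differed by -0.72 at 6 h (0.00129) and by -0.81 at 12 h (0.000273), and that of Ifi35 by -0.96 at 12 h (0.00322). Against serum at 2 h, the E2F1 change was higher by 2.60 for Stat2 (2.78e-10) and 2.59 for Irf1 (3.08e-08). At 6 h the differences were 1.07 for Stat2 (1.13e-05), 2.37 for Irf1 (8.88e-08), 0.87 for Isg15 (0.0219) and 0.72 for Bst2 (0.00777). With quantile normalization Isg15 (0.104) and Bst2 (0.0769) lost the 6 h call. Leaving out some single libraries also ended it for Isg15. At 12 h they were 1.30 for Stat2 (2.17e-06), 1.20 for Irf1 (0.000297), 1.08 for Irf9 (0.00358), 1.70 for Isg15 (0.000193) and 0.85 for Bst2 (0.00294). The serum arm is the EV line and the other arm the E2F1 line, so stimulus and line cannot be told apart in the values against serum. Against the EV line 12.3% and 23.3% of all genes were called lower at 6 and 12 h, and 22.2% and 27.3% higher. Against serum 26.6%, 30.3% and 25.0% were higher at 2, 6 and 12 h, and 30.2%, 27.6% and 23.8% lower.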

How the results depend on the processing

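With a mean of at least 500 only Stat2, Irf1 and Isg15 were tested, and the number of the 6 genes called was 1 at 6 h of E2F1, 3 at 6 h and 3 at 12 h of serum, 1 for E2F1 against EV at 12 h and 3 for E2F1 against serum at 12 h. For E2F1 against EV at 6 h it was 2 in place of 1 with equal totals, quantile normalization or only the groups compared, and for E2F1 against serum at 2 h it was 4 in place of 2 with equal totals. For the lines at 0 h it was 2 with quantile normalization and 0 without the doxycycline or all 2 h libraries, and 0 to 1 without single libraries. Leaving out single libraries gave 2 to 3 genes at 12 h of E2F1, 2 to 4, 4 to 6 and 5 to 6 at 2, 6 and 12 h of serum, 2 to 3 for E2F1 against EV at 12 h, and 2 to 3, 3 to 5 and 5 for E2F1 against serum. The replicate number as a block, which the check of deviations did not settle as a pairing, left the count as it was in all 16 comparisons, such as 6 at 12 h of serum. The cause of these shifts was not tested.

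Only values that missed the threshold as reported changed sign. With quantile normalization these were Irf1 at 2 h (-0.000174) and 12 h (-0.0375) and Bst2 at 12 h (-0.00816) of E2F1, Ifi35 at 2 h of serum (0.291), and Isg15 (-0.0123) and Bst2 (-0.0779) for E2F1 against serum at 2 h. With equal totals they were Isg15 at 6 h (-0.00729) and Bst2 at 12 h (-0.0164) of E2F1, Isg15 at 2 h of serum (-0.105) and Ifi35 for E2F1 against serum at 2 h (0.200). Without single libraries, E2F1 values ran from -0.0878 to 0.120 for Irf1 at 2 h, -0.0974 to 0.316 for Isg15 at 6 h and -0.0869 to 0.170 for Bst2 at 12 h. EV doxycycline values ran from -0.114 to 0.191 (Stat2) and -0.225 to 0.133 (Bst2) at 2 h, from -0.116 to 0.190 (Stat2), -0.453 to 0.124 (Isg15) and -0.181 to 0.0289 (Ifi35) at 6 h, and from -0.0921 to 0.484 (Isg15) at 12 h. At 2 h of serum they ran from -0.0355 to 0.575 for Isg15 and -0.0875 to 0.0462 for Ifi35. For E2F1 against EV the ranges were -0.146 to 0.430 (Isg15) and -0.253 to 0.105 (Bst2) at 2 h, and -0.272 to 0.158 (Irf1) and -0.0142 to 0.562 (Isg15) at 6 h. Isg15 ran from -0.127 to 0.483 for E2F1 against serum at 2 h and from -0.146 to 0.430 for the lines at 0 h. With 2 libraries a group the spread between them limits these values, the depth behind them is unknown, and a gene left out of the deposited table could not be assessed.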

Other observations

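Other interferon-stimulated genes differed between the lines before any stimulus. Of the 38 in the table, 14 were higher and 1 lower in the E2F1 line at 0 h, where 8.86% and 6.17% of all 11208 genes were, with a median log2 difference of 0.38 beside 0.02 over all genes. Without EV 0 h replicate 2 the number called was 7, without E2F1 0 h replicate 2 it was 6, and without all 2 h libraries 10 were higher and 1 lower. Parp14, an ADP-ribosyltransferase, showed the largest of these differences (2.12, limma adjusted p 0.00058), followed by Sp100 (1.20, adjusted p 0.0493), a nuclear body protein, and Lgals3bp (1.12, adjusted p 0.00347). Gbp2, a guanylate-binding protein, was higher by 0.91 (adjusted p 0.00177), and Ifitm2 was the lower one (-0.54, adjusted p 0.000968). These genes were named after their values were seen.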
